A study of Mus musculus with 12 samples.

Results

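The BCL2 family decides whether the outer membrane of the mitochondrion is opened and the cell is committed to apoptosis. Guardians such as BCL2, BCL-XL (the product of Bcl2l1) and MCL1 hold the effectors BAX and BAK (Bak1) in check. BH3-only proteins such as BIM (Bcl2l11), BID, BIK, BMF, PUMA (Bbc3) and NOXA (Pmaip1) bind the guardians or activate the effectors. In liver, loss of BCL-XL or MCL1 from hepatocytes is known to cause spontaneous hepatocyte apoptosis, while acetaminophen overdose kills hepatocytes mainly by necrosis that starts from mitochondrial damage. The 10 genes described here were chosen by name: Bcl2, Bcl2l1, Bcl2l11, Mcl1, Bak1, Bid, Bik, Bmf, Bbc3 and Pmaip1. They were read by 12 probe sets with a single gene symbol, 2 of them for Bak1 and 2 for Bcl2. All 10 genes passed the filter on dim probe sets and are 10 of 17052 tested genes.

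Liver RNA from female BALB/cByJ mice aged 2.5 months was read on 12 arrays of the type Affymetrix Mouse Gene 1.1 ST. The mice were Pml KO (lacking the scaffold protein of PML nuclear bodies) or Pml wt, and were either left untreated or given 300 mg/kg acetaminophen (APAP) in warmed PBS by intraperitoneal injection and taken at 2 h or at 6 h. The 6 groups were thus untreated KO, untreated wt, KO at 2 h, wt at 2 h, KO at 6 h and wt at 6 h, with 2 arrays each. The sources used here do not state a vehicle injection of the untreated mice, the deleted part of Pml or that each array is a separate animal. The p-values therefore measure only the spread between these samples, which may be technical. Values are log2 of the authors' normalized intensity, and a log2 difference of 1 is a 2-fold change. Differences were tested with limma over all 17052 genes, ± is the standard error of that fit, and a gene was called at a Benjamini-Hochberg adjusted p under 0.05.

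The array median intensity was 79.9 to 90.1, and 12 arrays limit the precision. Pml itself had log2 intensities of 7.10 and 7.97 in untreated KO liver against 8.18 and 8.46 in untreated wt liver. At 6 h it had 7.09 and 7.16 in KO liver against 7.87 and 7.88 in wt liver. Where its probes lie relative to the deletion was not used here. As the mean of the 3 conditions it was -0.70 ± 0.14 in KO minus wt liver (adjusted p 0.035). Replicate 2 of untreated KO liver thus lay inside the range of the wt arrays, and replicate 2 of KO liver at 6 h stood apart from replicate 1 on the first principal component, at 19.8 against 39.7. Of 13 hepatocyte markers, whose summed intensity was 80681 to 102855 over all arrays, 3 fell in KO liver at 6 h and 1 fell in wt liver at 6 h, or 2 to 4 and 0 to 2 with each array left out in turn. Of all tested genes, 19.1% were called lower in KO liver at 6 h and 22% in wt liver at 6 h. In bulk liver, fewer cells of a type and less RNA per cell cannot be told apart.

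Promoter sequences are shown for Bcl2l11, Mcl1, Bcl2l1 and Bid because these genes were called higher at 6 h in both genotypes. RefSeq (GRCm38.p6) held promoters for 8 of the 10 members, 15 promoters in all, each running from 250 bases before to 50 bases after a gene start. Each is printed 5′ to 3′ along the gene's strand, and capitals mark the letters GTAAACA (a FOXO site) or GGGCGG (a GC box) read on either strand.
Bcl2l11 start 1, chr2:128125788-128126087, + strand: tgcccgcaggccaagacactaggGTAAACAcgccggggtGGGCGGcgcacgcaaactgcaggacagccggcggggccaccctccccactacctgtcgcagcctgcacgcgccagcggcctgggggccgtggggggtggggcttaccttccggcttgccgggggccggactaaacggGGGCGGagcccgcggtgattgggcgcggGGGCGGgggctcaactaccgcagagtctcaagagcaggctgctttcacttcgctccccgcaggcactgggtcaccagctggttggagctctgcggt
Bcl2l11 start 2, chr2:128127325-128127624, + strand: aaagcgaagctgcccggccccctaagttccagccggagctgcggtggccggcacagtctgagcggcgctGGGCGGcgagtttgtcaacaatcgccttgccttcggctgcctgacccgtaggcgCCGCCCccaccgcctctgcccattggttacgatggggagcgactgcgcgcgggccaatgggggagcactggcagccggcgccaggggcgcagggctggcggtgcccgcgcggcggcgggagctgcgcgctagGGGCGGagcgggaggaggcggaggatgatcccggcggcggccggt
Mcl1, chr3:95658471-95658770, + strand: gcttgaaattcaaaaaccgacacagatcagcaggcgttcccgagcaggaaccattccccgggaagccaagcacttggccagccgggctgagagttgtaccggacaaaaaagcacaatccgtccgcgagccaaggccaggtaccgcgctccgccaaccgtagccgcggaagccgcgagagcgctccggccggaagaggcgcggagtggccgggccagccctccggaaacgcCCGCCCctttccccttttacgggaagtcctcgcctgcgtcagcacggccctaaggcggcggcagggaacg
Bcl2l1 start 1, chr2:152831679-152831978, - strand: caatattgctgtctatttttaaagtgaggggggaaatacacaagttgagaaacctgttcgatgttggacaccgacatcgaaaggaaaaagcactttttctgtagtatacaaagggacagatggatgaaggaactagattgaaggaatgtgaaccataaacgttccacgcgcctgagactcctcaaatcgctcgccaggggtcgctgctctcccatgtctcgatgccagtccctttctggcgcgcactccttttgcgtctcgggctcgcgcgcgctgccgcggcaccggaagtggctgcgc
Bcl2l1 start 2, chr2:152830668-152830967, - strand: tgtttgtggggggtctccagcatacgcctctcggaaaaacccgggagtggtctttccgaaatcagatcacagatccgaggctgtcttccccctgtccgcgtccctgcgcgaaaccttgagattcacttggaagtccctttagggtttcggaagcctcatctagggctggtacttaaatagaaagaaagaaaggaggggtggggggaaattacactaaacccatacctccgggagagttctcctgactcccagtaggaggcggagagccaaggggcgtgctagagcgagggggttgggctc
Bcl2l1 start 3, chr2:152828440-152828739, - strand: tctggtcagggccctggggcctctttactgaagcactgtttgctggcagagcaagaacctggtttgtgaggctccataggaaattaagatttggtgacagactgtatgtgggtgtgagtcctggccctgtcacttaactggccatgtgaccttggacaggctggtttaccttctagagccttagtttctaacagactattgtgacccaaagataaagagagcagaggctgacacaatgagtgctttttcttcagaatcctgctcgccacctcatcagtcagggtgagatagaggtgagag
Bid, chr6:120916775-120917074, - strand: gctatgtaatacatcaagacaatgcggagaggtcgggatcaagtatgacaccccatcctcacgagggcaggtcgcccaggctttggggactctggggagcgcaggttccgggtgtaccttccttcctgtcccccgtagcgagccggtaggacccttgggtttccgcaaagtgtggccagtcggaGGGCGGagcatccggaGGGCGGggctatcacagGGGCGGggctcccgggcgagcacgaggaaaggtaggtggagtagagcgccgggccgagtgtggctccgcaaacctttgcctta

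The first Bcl2l11 promoter held a FOXO site at -227 relative to the gene start, and FOXO letters also stood in 1 promoter of Bbc3. None of the searched motifs had a match in the 3 promoters of Bcl2l1. The FOXO letters stood in 3.65% of all 32851 promoters of the table. The GC box stood in 9 of the 15 member promoters, among them both of Bcl2l11 and those of Mcl1 and Bid, and in 35.7% of all promoters. Windows of 1 gene are not independent, and those of Bbc3 from 16310011 and from 16310181 on chr7 overlap. GC content of the windows with a GC box ran from 55.3% (Bmf) to 78% (Bbc3), against a median of 52.7% over all promoters. The shares do not allow for that difference. An E-box (CACGTG) stood in 1 Bbc3 promoter and in 7.15% of all promoters. Searched on both strands, an AP-1 site (TGANTCA, 7.81% of all promoters), a cAMP response element (TGACGTCA, 1.79%), an ATF4 composite element (TGATGNAA, 3.97%), a heat shock element (GAANNTTC, 7.86%) and a STAT site (TTCNNNGAA, 8.30%) had no match in the 15 member windows. Letters of the heat shock element and the STAT site can overlap. A match of letters is a description and not a binding site.

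**Figure D1:**
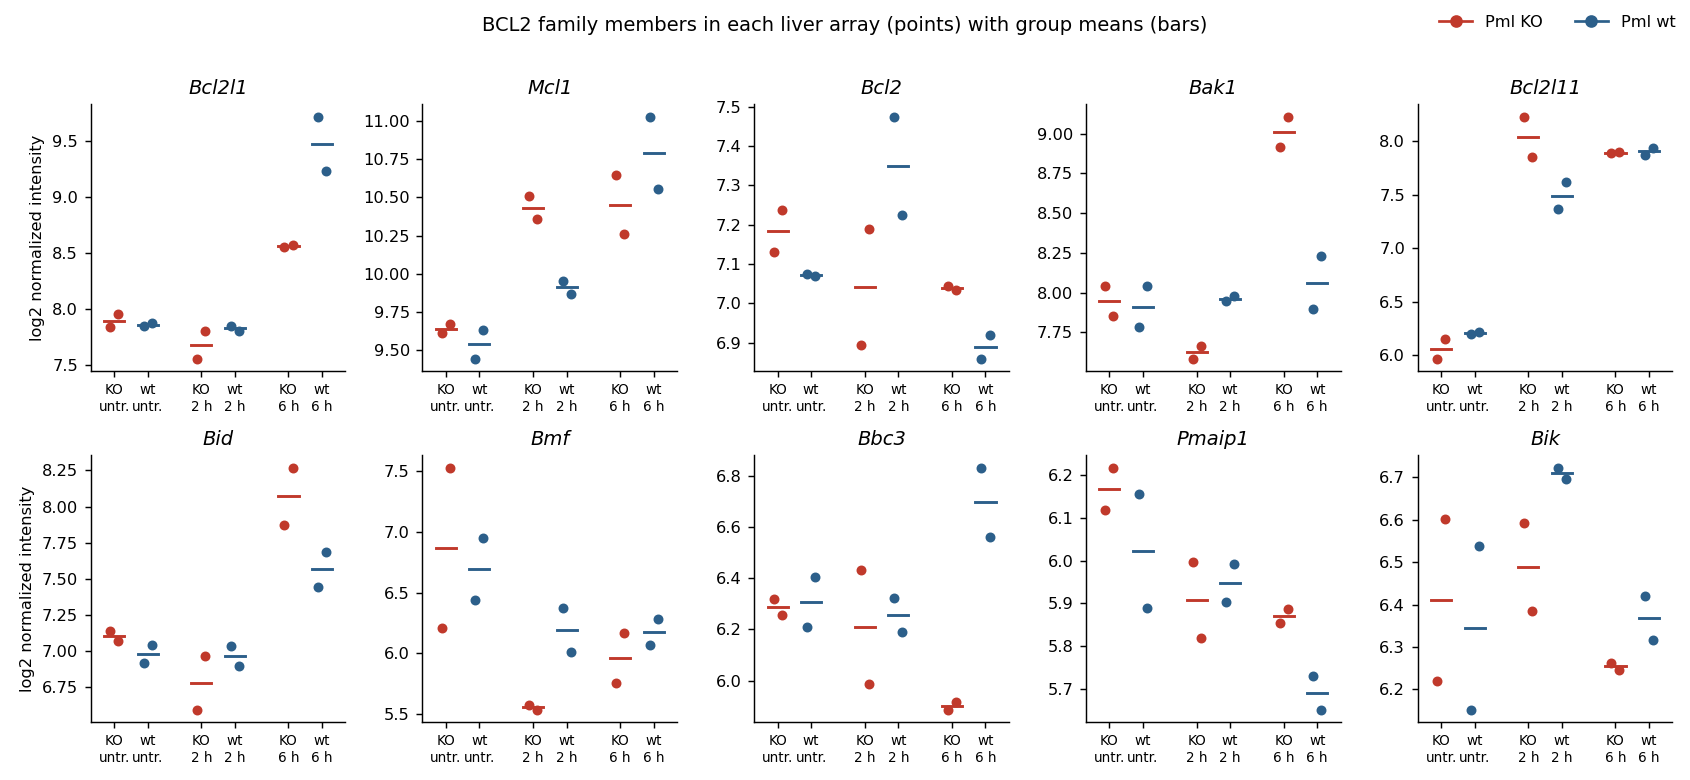
Log2 normalized intensity (vertical axis, a separate scale in each panel) of the 10 BCL2 family genes in each liver array (points) with group means (bars), Pml KO in red and Pml wt in blue, untreated, 2 h and 6 h after acetaminophen. Bcl2l11 stood higher in every treated array than in every untreated array, and Bcl2l1 was highest in the 2 wt arrays at 6 h.

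Among the guardians, Bcl2l1 rose late. Its log2 intensity was 7.84 and 7.95 in untreated KO liver and 7.84 and 7.87 in untreated wt liver. At 2 h it was 7.56 and 7.81 in KO liver and 7.85 and 7.81 in wt liver. By 6 h it was 8.55 and 8.57 in KO liver and 9.72 and 9.23 in wt liver. All 4 arrays at 6 h lay above all 8 earlier arrays, and both wt arrays at 6 h lay above both KO arrays. The rise at 6 h over untreated liver was 0.67 ± 0.15 in KO liver (1.59-fold, adjusted p 0.00631) and 1.62 ± 0.15 in wt liver (3.07-fold, adjusted p 3.88e-05). At 2 h the differences were -0.21 ± 0.15 in KO liver (adjusted p 0.3) and -0.03 ± 0.15 in wt liver (adjusted p 0.924).

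Mcl1, whose product is a short-lived guardian, had log2 intensities of 9.61 and 9.67 in untreated KO liver and 9.45 and 9.63 in untreated wt liver. By 2 h it had 10.51 and 10.36 in KO liver and 9.96 and 9.87 in wt liver. After 6 h it had 10.65 and 10.26 in KO liver and 11.03 and 10.55 in wt liver. Every treated array lay above every untreated array, and at 6 h the genotypes overlapped. In KO liver Mcl1 rose by 0.79 ± 0.17 at 2 h (1.73-fold, adjusted p 0.00644) and by 0.81 ± 0.17 at 6 h (1.75-fold, adjusted p 0.0044). In wt liver the difference at 2 h was 0.37 ± 0.17 (adjusted p 0.184), and the rise at 6 h was 1.25 ± 0.17 (2.38-fold, adjusted p 0.000301). The KO response minus the wt response was 0.42 ± 0.24 at 2 h with an adjusted p of 0.428, where 0.0293% of all tested genes were called. At 6 h it was -0.44 ± 0.24, with an adjusted p of 0.389, so neither difference between the genotypes passed.

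Bcl2, the founding guardian, was read by probe sets 10357043 and 10349102, and the brighter 10357043 entered the gene fit. This probe set had log2 intensities of 7.13 and 7.24 in untreated KO liver and 7.07 and 7.07 in untreated wt liver. After 2 h it had 6.89 and 7.19 in KO liver and 7.48 and 7.22 in wt liver. By 6 h it had 7.04 and 7.03 in KO liver and 6.86 and 6.92 in wt liver. Its group means spanned 0.46 log2 units. Bcl2 did not pass the test against untreated liver at either time. In wt liver it was lower at 6 h than at 2 h, by -0.46 ± 0.12 (adjusted p 0.02), a call lost without wt 2 h replicate 1, without either wt array at 6 h, and with the mean of both probe sets. Log2 intensities of the dimmer probe set lay between 5.28 and 5.75. A limma fit of all single-symbol probe sets gave it 0.12 ± 0.12 in wt liver at 6 h minus 2 h (adjusted p 0.497). At 6 h minus untreated wt liver it was 0.33 ± 0.12 (adjusted p 0.0574), against -0.18 ± 0.12 for the brighter. Both differences of the dimmer probe set were opposite in sign to those of the brighter. The dimmer one had a range of group means of 0.33 log2 units. Over the 12 arrays the probe sets correlated at -0.09, a description over arrays of 6 groups.

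Bak1, which encodes the effector BAK, gave readings that depended on the probe set, so each is given by itself. Probe set 10449303, the brighter of the pair, had log2 intensities of 8.04 and 7.85 in untreated KO liver and 7.78 and 8.04 in untreated wt liver. At 2 h it had 7.58 and 7.66 in KO liver and 7.95 and 7.98 in wt liver. After 6 h it had 8.92 and 9.11 in KO liver and 7.90 and 8.23 in wt liver. Both KO arrays at 6 h lay above all other arrays. In KO liver this probe set rose at 6 h by 1.07 ± 0.14 (2.09-fold, adjusted p 0.000299), and in wt liver the difference was 0.15 ± 0.14 (adjusted p 0.433).

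Probe set 10443117 of Bak1 had log2 intensities of 7.05 and 6.72 in untreated KO liver and 6.91 and 7.04 in untreated wt liver. By 2 h it had 6.28 and 6.25 in KO liver and 6.785 and 6.998 in wt liver. At 6 h it had 5.79 and 5.79 in KO liver and 6.32 and 6.33 in wt liver. Here both KO arrays at 6 h lay below all other arrays, opposite to the brighter probe set. In a limma fit of all 19236 single-symbol probe sets, it fell in KO liver by -0.62 ± 0.12 at 2 h (adjusted p 0.00474) and by -1.09 ± 0.12 at 6 h (adjusted p 0.000142), and in wt liver by -0.65 ± 0.12 at 6 h (adjusted p 0.00229). These 3 calls held under all 17 alternatives run on that fit. The shares of all probe sets called in it were 31.2% in KO liver at 2 h, 34.9% in KO liver at 6 h and 38% in wt liver at 6 h. The correlation of the pair over the 12 arrays was -0.59, as a description. In RefSeq the gene Ggnbp1 overlaps Bak1, and positions of the probe sets were not used here, so a single direction for Bak1 RNA is not given. With the mean of both probe sets, the difference in KO liver at 6 h was -0.013 (adjusted p 0.945).

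**Figure D2:**
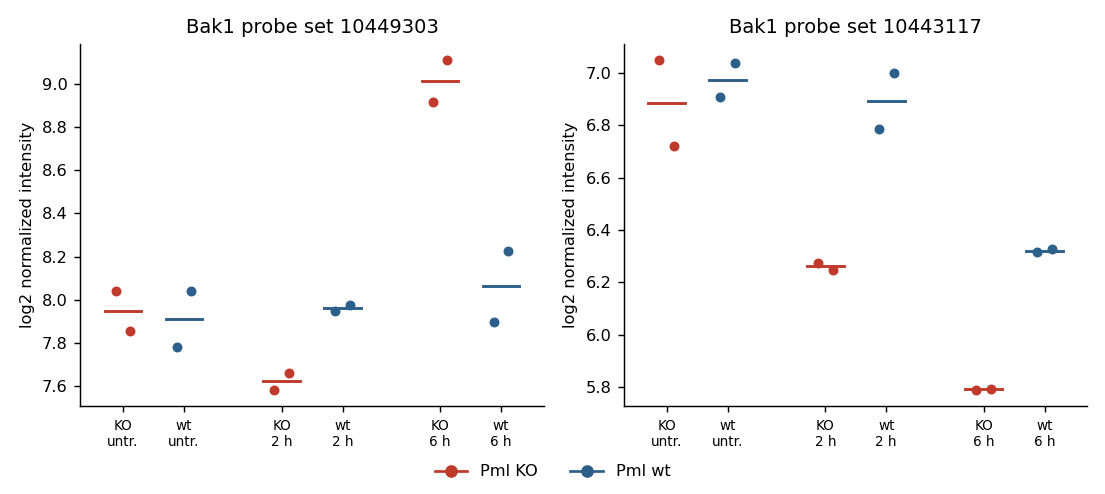
Log2 normalized intensity of the 2 Bak1 probe sets (one panel each, separate vertical scales) in each liver array (points) with group means (bars), Pml KO in red and Pml wt in blue. At 6 h the KO arrays were the highest of all arrays for 10449303 (8.92 and 9.11) and the lowest for 10443117 (5.79 and 5.79).

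Of the BH3-only genes, Bcl2l11 had the widest span of group means, 1.98 log2 units, and was called at both times in both genotypes. BIM, its product, binds all the main guardians and can activate BAX and BAK directly. Its log2 intensity was 5.97 and 6.15 in untreated KO liver and 6.20 and 6.22 in untreated wt liver. After 2 h it was 8.23 and 7.85 in KO liver and 7.37 and 7.62 in wt liver. By 6 h it was 7.89 and 7.90 in KO liver and 7.87 and 7.94 in wt liver. All 8 treated arrays lay above all 4 untreated arrays, and at 2 h both KO arrays lay above both wt arrays. Bcl2l11 rose at 2 h by 1.98 ± 0.14 in KO liver (3.96-fold, adjusted p 3.27e-05) and by 1.29 ± 0.14 in wt liver (2.44-fold, adjusted p 0.000377). After 6 h it rose by 1.84 ± 0.14 in KO liver (3.57-fold, adjusted p 1.49e-05) and by 1.70 ± 0.14 in wt liver (3.24-fold, adjusted p 2e-05). Each of these 4 calls held under all 20 alternatives tried.

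Bid, whose product links caspase 8 to mitochondria once it is cleaved, had log2 intensities of 7.14 and 7.07 in untreated KO liver and 6.91 and 7.04 in untreated wt liver. At 2 h it had 6.59 and 6.97 in KO liver and 7.03 and 6.90 in wt liver. At 6 h it had 7.87 and 8.27 in KO liver and 7.45 and 7.69 in wt liver. All arrays at 6 h lay above all earlier arrays, with the KO arrays highest. The rise at 6 h was 0.97 ± 0.16 in KO liver (1.96-fold, adjusted p 0.00126) and 0.59 ± 0.16 in wt liver (1.51-fold, adjusted p 0.0154). In wt liver the call was lost without wt untreated replicate 1 or without wt 6 h replicate 2, with adjusted p up to 0.1. KO minus wt liver at 6 h was 0.50 ± 0.16 (adjusted p 0.0763), which did not pass.

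Bmf, a BH3-only gene whose product is tethered to the cytoskeleton, had log2 intensities of 6.21 and 7.53 in untreated KO liver and 6.44 and 6.95 in untreated wt liver. By 2 h it had 5.58 and 5.54 in KO liver and 6.37 and 6.01 in wt liver. By 6 h it had 5.76 and 6.17 in KO liver and 6.07 and 6.28 in wt liver. The untreated arrays of either genotype lay above the treated arrays of that genotype but spread widely. In KO liver at 2 h Bmf fell by -1.31 ± 0.35 (adjusted p 0.0171). Without KO untreated replicate 2 that difference was -0.65 (adjusted p 0.102), and the call was also lost without either KO array at 2 h and with only the compared groups in the fit.

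Bbc3, which encodes the p53 target PUMA, had log2 intensities of 6.32 and 6.26 in untreated KO liver and 6.21 and 6.40 in untreated wt liver. After 2 h it had 6.43 and 5.99 in KO liver and 6.32 and 6.19 in wt liver. After 6 h it had 5.89 and 5.91 in KO liver and 6.83 and 6.56 in wt liver. At 6 h the KO arrays were below and the wt arrays above all 4 untreated arrays. Against untreated liver these differences were -0.39 ± 0.15 in KO liver (adjusted p 0.0729) and 0.39 ± 0.15 in wt liver (adjusted p 0.0668), and neither passed.

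Pmaip1 and Bik varied least among the BH3-only genes, with group means spanning 0.48 and 0.46 log2 units. NOXA, the product of Pmaip1, binds MCL1 selectively. Pmaip1 had log2 intensities of 5.85 and 5.89 in KO liver at 6 h and 5.73 and 5.65 in wt liver at 6 h, against 6.12 and 6.22 in untreated KO liver and 6.16 and 5.89 in untreated wt liver. Its 2 h values were 6.00 and 5.82 in KO liver and 5.90 and 5.99 in wt liver. The fall in wt liver at 6 h was -0.33 ± 0.12 (adjusted p 0.0444), and the call was lost under 15 of 19 alternatives, with adjusted p up to 0.291. Bik, the BH3-only gene of the endoplasmic reticulum, had log2 intensities between 6.15 and 6.72 over the 12 arrays and was called in none of the 12 comparisons by limma, where its smallest adjusted p was 0.127.

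**Figure D3:**
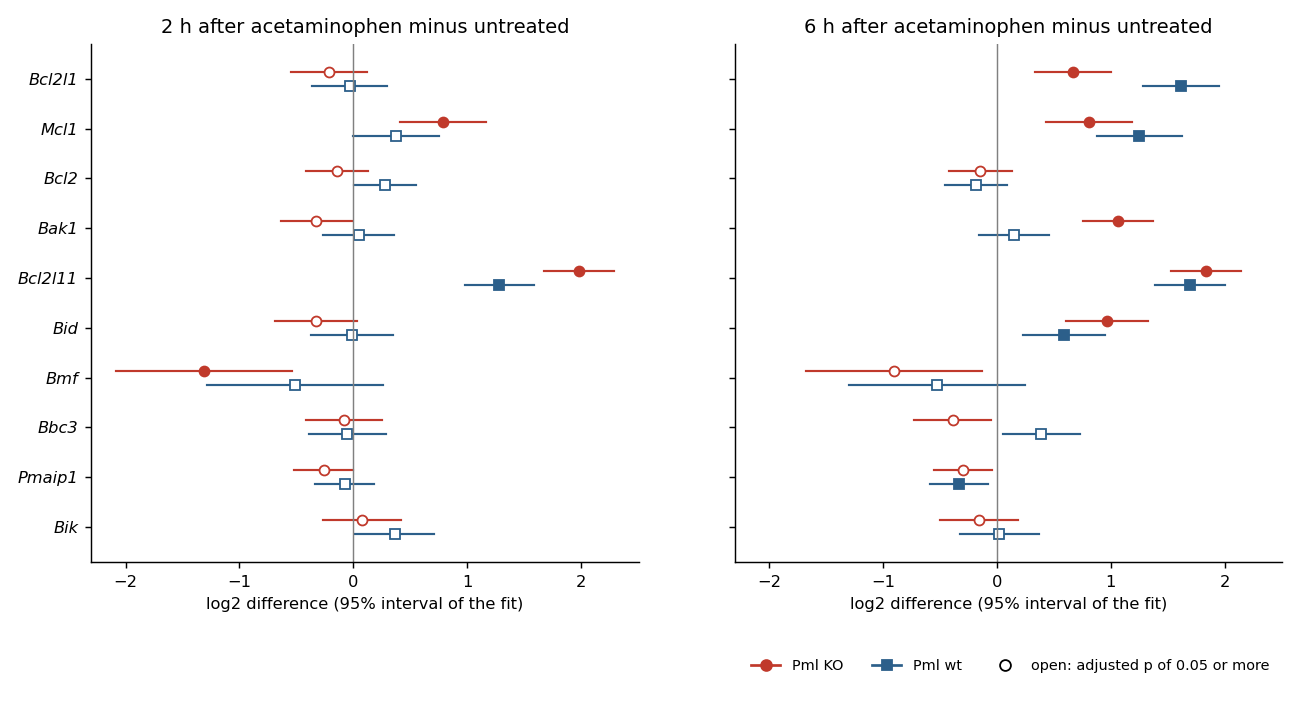
Log2 difference (horizontal axis, with the 95% interval of the limma fit) of treated minus untreated liver for the 10 genes, at 2 h (left) and 6 h (right), Pml KO as red circles and Pml wt as blue squares. Filled symbols passed the test, among them Bcl2l11 in all 4 comparisons and Bcl2l1, Mcl1 and Bid in both genotypes at 6 h. Bak1 is shown by probe set 10449303.

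Counted over the family at 2 h, 2 members were called higher (Bcl2l11 and Mcl1) and 1 lower (Bmf) of 10 in KO liver, where 31.4% of all tested genes were called, 10.6% higher and 20.8% lower. In wt liver at 2 h 1 member was called, Bcl2l11, where 12.7% of all tested genes were called, 6.53% higher and 6.17% lower. At 6 h 5 members were called higher in KO liver (Bcl2l11, Mcl1, Bid, Bcl2l1 and the brighter Bak1 probe set) and 0 lower, beside 34.9% of all tested genes called, 15.8% higher and 19.1% lower. In wt liver at 6 h 4 were called higher (Bcl2l11, Bcl2l1, Mcl1 and Bid) and 1 lower (Pmaip1), beside 38.4% of all tested genes, 16.5% higher and 22% lower. The median log2 difference of the 10 members at 6 h was 0.26 in KO liver and 0.27 in wt liver, against -0.05 over all tested genes in either genotype. At 2 h it was -0.18 in KO liver and 0.02 in wt liver, against -0.06 and 0.02 over all tested genes. These medians take Bak1 by its brighter probe set. In KO liver at 6 h the middle members were Bcl2l1 at 0.67 and Bcl2 at -0.14. With probe set 10443117 for Bak1 (-1.09), that median would be negative. The 0 falls in KO liver at 6 h are by limma, where 8 of the 10 members and 44.7% of all tested genes had an unadjusted p under 0.05 in either direction. The counts leave out Bak1 probe set 10443117, which was called lower in the fit of all probe sets. It fell by -0.62 in KO liver at 2 h, -1.09 in KO liver at 6 h and -0.65 in wt liver at 6 h. Of all probe sets 31.2%, 34.9% and 38% were called there.

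Between the treated times, 3 members were higher at 6 h than at 2 h in KO liver: the brighter Bak1 probe set by 1.39 ± 0.14, Bid by 1.29 ± 0.16 and Bcl2l1 by 0.88 ± 0.15, where 31.7% of all tested genes were called, 19.1% higher and 12.6% lower. The other Bak1 probe set, 10443117, was lower at 6 h than at 2 h, by -0.47 ± 0.12 in KO liver and by -0.57 ± 0.12 in wt liver (adjusted p 0.0155 and 0.00803 in the fit of all probe sets, where 32.6% and 27.3% were called). The call in KO liver was lost without any 1 of its 4 arrays (adjusted p up to 0.0605), and that in wt liver without wt 2 h replicate 2 (adjusted p 0.0665). In wt liver at 6 h minus 2 h, 27.7% of all tested genes were called, 10.9% higher and 16.8% lower. Bcl2 was lower there by its brighter probe set only, and 4 members were higher. These were Bcl2l1 by 1.65 ± 0.15, Mcl1 by 0.88 ± 0.17, Bid by 0.60 ± 0.16 and Bcl2l11 by 0.41 ± 0.14, the last at an adjusted p of 0.0477 whose call was lost under 13 of 20 alternatives. Bid lost its call there without either wt array at 2 h or without wt 6 h replicate 2. Mcl1 and Bcl2l11 in KO liver were at 6 h within 0.02 ± 0.17 and -0.15 ± 0.14 of their level at 2 h (adjusted p 0.948 and 0.444), with 95% intervals of -0.36 to 0.39 and -0.45 to 0.16.

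In the comparison of genotypes, 0 of 10 members were called in untreated liver by limma, where 0.00586% of all tested genes were called. An unadjusted p under 0.05 was found for 0 members and for 3.87% of all tested genes. The 95% intervals of these differences ran at the widest from -0.60 to 0.94, for Bmf. At 2 h 0 were called, beside 2.01% of all tested genes, and 4 had an unadjusted p under 0.05, beside 23.6% of all tested genes. These included Bcl2l11 at 0.55 ± 0.14 (adjusted p 0.0626) and Mcl1 at 0.52 ± 0.17 (adjusted p 0.11), both with KO arrays above wt arrays. The others had KO arrays below wt arrays, Bcl2 at -0.31 ± 0.12 and the brighter Bak1 probe set at -0.34 ± 0.14. Their adjusted p was 0.159 and 0.17 in the fit of all probe sets. Under quantile normalization Bcl2l11 passed, at 0.70 (adjusted p 0.0414), and it also passed without KO 2 h replicate 2. The KO response at 2 h minus the wt response was 0.70 ± 0.20 for Bcl2l11, with a 95% interval of 0.27 to 1.13 (adjusted p 0.201). A fit with a variance trend called 0 in both conditions. As the mean of the 3 conditions 0 members were called, beside 1.78% of all tested genes, and 3 had an unadjusted p under 0.05, beside 19.4% of all tested genes. These counts take Bak1 by its brighter probe set. In the fit of all probe sets the other, 10443117, was lower in KO liver at 2 h by -0.63 ± 0.12 (adjusted p 0.0344, where 2.39% of all probe sets were called) and over the 3 conditions by -0.42 ± 0.07 (adjusted p 0.0202, where 2.17% were called). Under quantile normalization both calls were lost, with adjusted p 0.0668 and 0.0503. The call at 2 h was lost under 8 of 17 alternatives, among them leaving out any 1 array at 2 h or either untreated wt array, with adjusted p up to 0.229. The call over the 3 conditions was lost under 4 of 17, among them without wt untreated replicate 2, wt 2 h replicate 2 or wt 6 h replicate 1, with adjusted p up to 0.064. The brighter probe set was 0.22 ± 0.08 over the 3 conditions (adjusted p 0.179).

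At 6 h 3 members differed between KO and wt liver, where 9.02% of all tested genes were called, 4.09% higher and 4.93% lower. Bcl2l1 was lower in KO liver by -0.91 ± 0.15 (adjusted p 0.00852) and Bbc3 by -0.80 ± 0.15 (adjusted p 0.0148), and the brighter Bak1 probe set was higher by 0.95 ± 0.14 (adjusted p 0.00572). The other Bak1 probe set was lower in KO liver at 6 h, by -0.53 ± 0.12 (adjusted p 0.0294 in the fit of all probe sets, where 8.8% were called), a call lost under 6 of 17 alternatives: quantile normalization (adjusted p 0.0604), only the compared groups, and leaving out any 1 array at 6 h (adjusted p up to 0.149). With the mean of both Bak1 probe sets the difference was 0.21 (adjusted p 0.287). All 3 calls were lost with only the 2 compared groups in the fit. Without wt 6 h replicate 1 they were -0.67 for Bcl2l1 (adjusted p 0.0579), -0.66 for Bbc3 (adjusted p 0.125) and 0.79 for Bak1 (adjusted p 0.0527). Without KO 6 h replicate 2 the adjusted p was 0.0558 for Bcl2l1 and 0.0824 for Bbc3, and 0.0494 for Bak1. The difference between the KO and the wt response at 6 h was not called for any member by limma, with 0.92 ± 0.20 for Bak1 (adjusted p 0.08), -0.95 ± 0.21 for Bcl2l1 (adjusted p 0.0855) and -0.78 ± 0.22 for Bbc3 (adjusted p 0.134), beside 0.487% of all tested genes called. All 3 had an unadjusted p under 0.05, as had 16.2% of all tested genes.

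**Figure D4:**
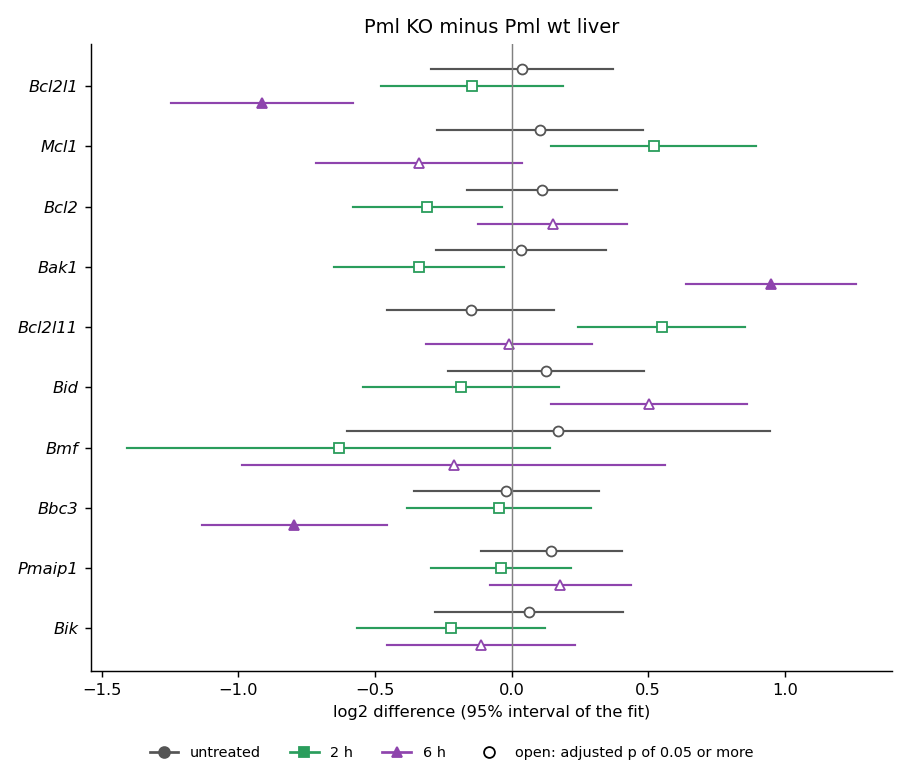
Log2 difference (horizontal axis, with the 95% interval of the limma fit) of Pml KO minus Pml wt liver for the 10 genes, untreated (grey circles), at 2 h (green squares) and at 6 h (purple triangles). Filled symbols passed the test: Bcl2l1 and Bbc3 lower and the brighter Bak1 probe set higher in KO liver at 6 h.

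Markers of other cell types were also called at 6 h. Of all tested genes, 15.8% were called higher and 19.1% lower in KO liver at 6 h. In wt liver at 6 h these shares were 16.5% and 22%. In KO minus wt liver at 6 h they were 4.09% and 4.93%. Of 13 tested neutrophil markers, 1 (Lcn2, which hepatocytes also make) was called higher in KO liver at 6 h and 10 in wt liver at 6 h, with median log2 differences of 0.26 and 2.49. In KO minus wt liver at 6 h 8 of the 13 were lower, with a median of -1.04, among them Cxcr2 at -2.98 and S100a9 at -2.61. Without KO 6 h replicate 2 or without wt 6 h replicate 1, 4 were lower. The summed intensity of the 13 was 4290 to 5873 in KO liver at 6 h and 5123 to 8859 in wt liver at 6 h, against 1322 to 1449 in untreated KO liver and 922 to 942 in untreated wt liver. A sum of linear intensities weighs the brightest markers most, and the share of each marker in it is not given here. Of 12 markers of Kupffer cells and macrophages, 2 were higher and 5 lower in KO liver at 6 h, and 1 higher and 7 lower in wt liver at 6 h. Of 11 markers of sinusoidal endothelium, 5 were lower in KO liver at 6 h, and 3 higher and 7 lower in wt liver at 6 h. Leaving out each array in turn gave 1 to 6 lower macrophage markers and 2 to 6 lower endothelial markers in KO liver, and 2 to 7 lower endothelial markers in wt liver. Neutrophils are known to express Mcl1 and Bcl2l11, and the part of these cells in the member results was not tested. The RefSeq neighbours that overlap Bcl2l11 and Bcl2l1 are Acoxl and Cox4i2. In KO liver at 6 h minus untreated KO liver they were -0.42 and -0.47 (adjusted p 0.0266 and 0.0102). In that comparison 34.9% of all tested genes were called. In wt liver at 6 h minus untreated wt liver they were -0.08 and -0.19 (adjusted p 0.64 and 0.23). Neither was called at 2 h against untreated liver in either genotype.

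For the gene lists that follow, the shares of all tested genes called are the measure to read the counts against: in KO liver 10.6% were higher and 20.8% lower at 2 h, and 15.8% higher and 19.1% lower at 6 h. In wt liver 6.53% were higher and 6.17% lower at 2 h, and 16.5% higher and 22% lower at 6 h. In KO minus wt liver at 6 h 4.09% were higher and 4.93% lower.

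Of 19 other genes of the BCL2 family and its BNIP relatives, 13 could be tested. Bax, the partner effector of BAK, and Bad, Bcl2a1a, Bcl2a1b and Bcl2a1d had no single-symbol probe set, and Bcl2l10 was under the filter on dim probe sets. Bnip3, a mitochondrial receptor for mitophagy, had log2 intensities of 11.78 and 11.69 in KO liver at 2 h against 10.77 and 10.91 in untreated KO liver, and 11.62 and 11.52 in wt liver at 2 h against 10.59 and 10.86 in untreated wt liver. It rose by 0.90 ± 0.13 in KO liver (adjusted p 0.00119) and by 0.84 ± 0.13 in wt liver (adjusted p 0.00298). Bnip3 and Bnip3l each had 2 single-symbol probe sets, and only the brighter of each is described here. Bcl2l13, another mitophagy receptor, rose at 2 h by 0.78 ± 0.10 in KO liver (adjusted p 0.00064) and by 0.47 ± 0.10 in wt liver (adjusted p 0.0131). Both genes stood higher in every 2 h array than in every untreated array. In KO liver at 2 h 5 of the 13 fell, namely Bok, an effector relative at -0.80, Bcl2l2, the guardian BCL-W, at -0.76, Bnip1 at -0.65, Bnip2 at -0.51 and Bcl2l12 at -0.42. Without KO untreated replicate 2, 3 fell. At 6 h 0 rose and 1 fell in KO liver (Bcl2l15 at -0.44), and 1 rose and 2 fell in wt liver (Hrk at 0.33, Bcl2l2 at -0.48 and Bnip1 at -0.77). The falls in KO liver at 6 h numbered 0 without KO untreated replicate 2 or KO 6 h replicate 1. Leaving out either KO array at 2 h, or KO 6 h replicate 2, gave 2 falls. In wt liver, leaving out each array in turn gave 1 to 2 rises at 2 h and 0 to 1 rises and 1 to 2 falls at 6 h.

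**Figure D5:**
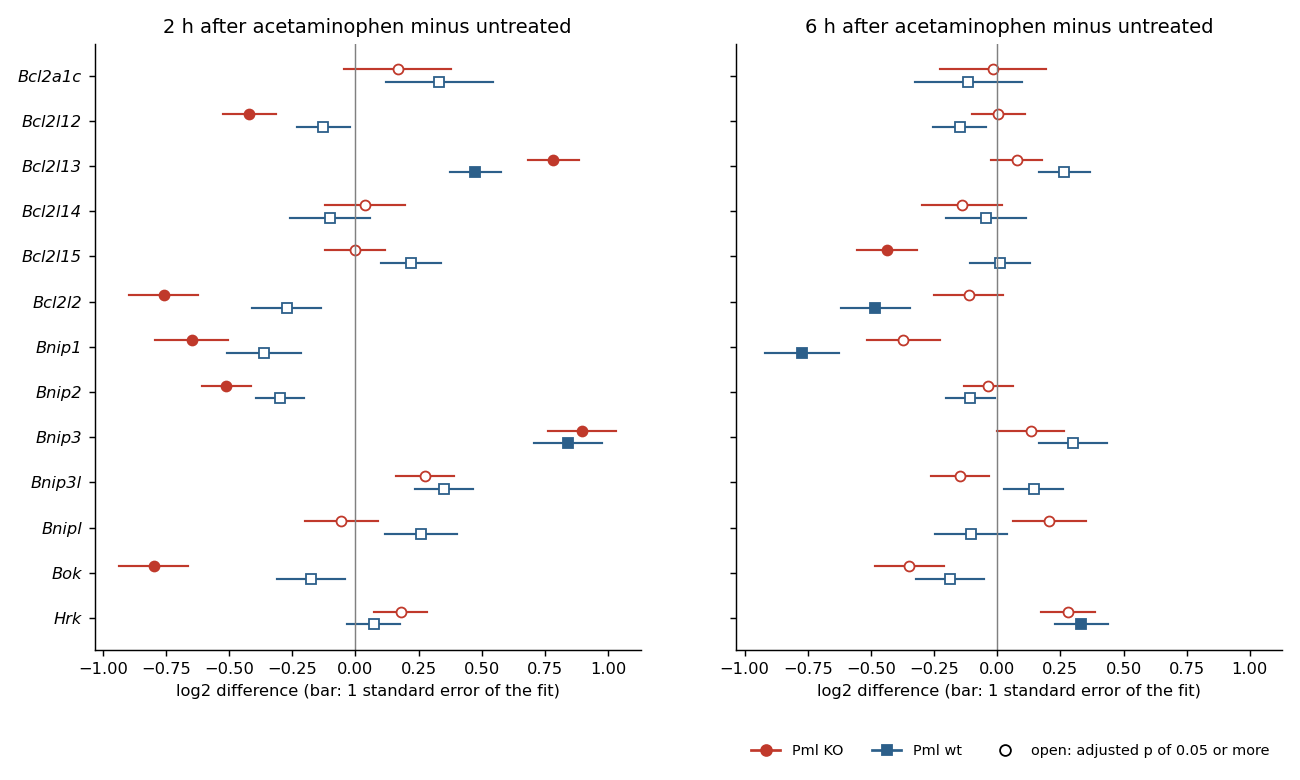
Log2 difference (horizontal axis, bars of 1 standard error of the limma fit) of treated minus untreated liver for 13 other BCL2 family genes, at 2 h (left) and 6 h (right), Pml KO as red circles and Pml wt as blue squares. Filled symbols passed the test, with Bnip3 and Bcl2l13 higher at 2 h in both genotypes.

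Of the list of apoptosome and caspase genes, 14 were tested. In KO liver 1 rose and 6 fell at 2 h, and 1 rose and 5 fell at 6 h. In wt liver 1 rose and 1 fell at 2 h, and 1 rose and 5 fell at 6 h. Casp8, the caspase that cleaves BID, rose at 2 h by 0.57 ± 0.10 in KO liver and by 0.47 ± 0.10 in wt liver (adjusted p 0.00288 and 0.0146). Casp6, an executioner caspase, fell at 6 h by -1.12 ± 0.17 in KO liver and by -1.31 ± 0.17 in wt liver (adjusted p 0.000706 and 0.000242). Without KO untreated replicate 2 the falls in KO liver numbered 1 at 2 h and 2 at 6 h. They numbered 3 at 2 h without either KO array at 2 h, 2 at 6 h without KO 6 h replicate 1, and 3 at 6 h without KO untreated replicate 1 or KO 6 h replicate 2. The rise at 6 h in KO liver was lost without any 1 of 8 arrays, all those of KO liver and of wt liver at 2 h, and in wt liver at 2 h leaving out arrays gave 0 to 1 rises and 0 to 2 falls.

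Among 21 tested genes that handle MCL1 and BH3-only proteins, 6 rose and 2 fell in KO liver at 2 h, and 5 rose and 2 fell at 6 h. In wt liver 3 rose and 0 fell at 2 h, and 6 rose and 3 fell at 6 h. The 5 rises in KO liver at 6 h became 3 without either untreated KO array or without KO 6 h replicate 1, and the 3 falls in wt liver at 6 h became 1 without wt untreated replicate 2 or wt 6 h replicate 2. The 2 falls in KO liver at 2 h became 1 without KO 2 h replicate 1. At 6 h Bag3, a chaperone partner that stabilises guardians, rose by 3.01 ± 0.58 in KO liver and by 3.74 ± 0.58 in wt liver (adjusted p 0.00284 and 0.000679). Trib1, a pseudokinase, and Pim3 and Pim1, kinases that phosphorylate BAD, were lower in KO than in wt liver at 6 h by -2.26 ± 0.36, -1.71 ± 0.26 and -1.92 ± 0.35 (adjusted p 0.00722, 0.00667 and 0.0122). These were the 3 genes of the list called in that comparison, 0 without wt 6 h replicate 1 and 1 without KO 6 h replicate 2.

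Of 25 tested transcription factors known to act on BCL2 family genes, 14 rose and 5 fell in KO liver at 2 h, and 10 rose and 5 fell at 6 h. In wt liver 11 rose and 4 fell at 2 h, and 14 rose and 4 fell at 6 h. The 4 falls in wt liver at 2 h became 1 to 2 without any 1 of 6 arrays, the untreated ones and those of wt liver at 2 h. Atf3 rose by 6.37 ± 0.39 in KO liver and by 6.62 ± 0.39 in wt liver at 6 h, and Foxo1 by 1.33 ± 0.14 in wt liver at 2 h (adjusted p 6.09e-06, 4.67e-06 and 0.000296). In KO minus wt liver at 6 h 8 of the 25 were lower and 0 higher, with Fos at -4.26 ± 0.32, Egr1 at -3.29 ± 0.44, Jun at -2.84 ± 0.38 and Rel at -1.53 ± 0.21. Without wt 6 h replicate 1, 4 were lower, and without KO 6 h replicate 2, 5 were lower. The median of the list was -0.38 against 0.01 over all tested genes.

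Among 17 tested mitochondrial partners of BAX and BAK, 6 rose and 6 fell in KO liver at 6 h and 3 rose and 5 fell in wt liver at 6 h, against 15.8% higher and 19.1% lower of all tested genes in KO liver and 16.5% and 22% in wt liver. Dnm1l, the GTPase that splits mitochondria, rose by 0.67 ± 0.13 and Tomm22, a receptor of the import pore, by 0.63 ± 0.12 in KO liver (adjusted p 0.00288 and 0.00296). Opa1, which shapes the cristae, fell by -0.49 ± 0.10 in wt liver (adjusted p 0.00263). Leaving out each array in turn gave 2 to 6 rises and 2 to 6 falls in KO liver, the lowest without either untreated KO array or KO 6 h replicate 1, and 0 to 3 rises in wt liver, 0 to 1 without any untreated or 6 h wt array. Of 7 tested inhibitor of apoptosis genes and their antagonists, 1 was called at 6 h, Septin4, which encodes the antagonist ARTS, at -0.68 ± 0.20 in KO liver and -1.37 ± 0.20 in wt liver (adjusted p 0.0264 and 0.000539), and leaving out arrays gave 0 to 1 in KO liver.

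Likeness of pattern was measured as Pearson's r of log2 intensity over the 12 arrays, which share their 6 groups, and is a description. For the 6 members whose group means spanned at least 1 log2 unit, the 3 most alike tested genes were taken. Bcl2l11 was most alike to Srsf3 at 0.983, Atf3 at 0.975 and Sqstm1 at 0.974. Bcl2l1 was most alike to Fhl3 at 0.979, Akr1b8 at 0.974 and Heg1 at 0.971, and Mcl1 to Ndfip2 at 0.973, Tgif1 at 0.960 and Mafk at 0.957. Bid was most alike to Tmpo at 0.974, Slc48a1 at 0.973 and Pacsin2 at 0.970, and the brighter Bak1 probe set to Psmd5 at 0.971, Rce1 at 0.961 and Cptp at 0.960. Bmf was most alike to Igfbp5 at 0.958, Fam71e1 at 0.942 and Ccdc68 at 0.932. Its highest array was KO untreated replicate 2 at 7.53, followed by wt untreated replicate 2 at 6.95. Likeness without that highest array was not computed.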

How the data were processed

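Total RNA of 12 liver samples was hybridised to 1 array each, in 6 groups of 2 taken from the sample labels. Per the submitters' processing notes, the authors ran RMA in Affymetrix Expression Console (versions not given in the sources used here). What they deposited is normalized intensity on a linear scale. Log2 of these deposited values was taken here without a pseudocount. Probe sets were named through the platform's annotation: of 35556, 21218 had 1 symbol (18820 genes), 1881 had several and 12457 none, and the last 2 kinds were left out. A gene was tested on its brightest single-symbol probe set with a mean log2 of at least 5, which gave 17052 genes. The 6 group means were fitted to all 12 arrays by limma 3.58.1 under R 4.3.3, using lmFit and then eBayes without a trend. The residual degrees of freedom were 6 and the prior ones 4.33. Tests were two-sided, and Benjamini-Hochberg adjustment ran over all genes of each of 12 comparisons. A second fit took all 19236 single-symbol probe sets. The fit was tested on simulated data. Members and lists were chosen with earlier results of these data known. The naming rule took every member and probe set, all tested genes of the other BCL2 family list, up to 4 genes of smallest p per other list, and the 3 most alike genes of members spanning at least 1 log2 unit. Alternatives were 20 in number: other filters, quantile normalization, averaging over the probe sets of each gene, a variance trend, only the compared groups, a replicate block, log2 of the value plus 16, and each array left out in turn.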

Additional observations from a re-analysis of the deposited data

Results flagged for a closer look

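Bbc3, which encodes PUMA, had differences of opposite sign in the genotypes at 6 h, neither of which passed the test: -0.39 ± 0.15 in KO liver (adjusted p 0.0729) and 0.39 ± 0.15 in wt liver (adjusted p 0.0668) in limma's fit of all genes. On probe set 10550290 both KO arrays at 6 h (5.89 and 5.91) lay below both untreated KO arrays (6.32 and 6.26), while both wt arrays at 6 h (6.83 and 6.56) lay above both untreated wt arrays (6.21 and 6.40). Subtracting the wt response from the KO response gave -0.776 ± 0.214 on the log2 scale in limma's fit of all single-symbol probe sets, with an adjusted p of 0.134, so the difference between the genotypes did not pass the test.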

How the results depend on the processing

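Over 20 alternatives, 227 of 240 counts of called members stayed within 1.5 times their value and 13 moved. Of the log2 differences of members and of both Bak1 probe sets, 2664 kept their direction and their side of the threshold, 75 no longer passed, 20 newly passed and 1 turned. Bak1 in KO liver at 6 h minus untreated KO liver was -0.013 with the mean of its probe sets (adjusted p 0.945), since that mean joins probe sets that moved in opposite directions. Called members in KO minus wt liver at 2 h numbered 1 under quantile normalization, against 0, and in KO minus wt liver at 6 h numbered 0 with only the compared groups, against 3. Leaving out each array in turn gave 3 to 5 called members for wt liver at 6 h minus untreated, 2 to 5 for wt liver at 6 h minus 2 h, 0 to 1 for KO minus wt liver at 2 h, 0 to 3 for KO minus wt liver at 6 h, 0 to 1 for KO minus wt liver over 3 conditions and 0 to 2 for the KO minus wt response at 6 h. The lowest counts came without wt 6 h replicate 1 for KO minus wt liver at 6 h (1 without KO 6 h replicate 2), and without wt untreated replicate 1 or wt 6 h replicate 2 for wt liver at 6 h minus untreated. The 2 calls for the response at 6 h and the 1 call over 3 conditions came without wt 6 h replicate 2. The cause was not tested. Where 1 array of a group was left out, the lone array was assumed to vary like the other groups. Counts of lists without each array were chosen after seeing the data, as were the fits of the Bak1 probe sets without each array, with only the compared groups or with the replicate block.

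The main fit did not pair the samples by replicate number. Deviations of same-numbered arrays correlated at -0.134 to 0.185, with 4 of 15 pairs over 0.1. With 2 arrays per group these values cannot decide whether the numbers pair the samples. With the replicate number as a block, called members were 1 for wt liver at 2 h, 4 for wt liver at 6 h, 3 for KO liver at 2 h, 6 for KO liver at 6 h, and 3 for KO minus wt liver at 6 h.

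Over all tested genes, 33.9% of the calls in KO liver at 2 h minus untreated were higher, and 44.6% under quantile normalization. For KO minus wt liver at 2 h these shares were 20.5% and 50.3%, and the calls numbered 342, against 197 under quantile normalization, 52 with only the compared groups and 550 with the replicate block. At 6 h that comparison had 1538 calls, 45.4% higher, against 142 with only the compared groups, 23.2% higher, while genes with a mean log2 of at least 7 gave 59.4% higher. As the mean of 3 conditions it had 304 calls, 18.4% higher, 191 under quantile normalization, 38.7% higher, and 201 with that stricter filter. For KO liver at 6 h minus 2 h, 5401 calls became 3101 with only the compared groups. Quantile normalization moved the median of all genes by at most 0.087.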
